A study of Mus musculus with 6 samples.

Results

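The Slc22 gene family encodes transporters that carry organic anions, organic cations and carnitine across the membranes of kidney tubule cells. The 9 genes described here were chosen by symbol: Slc22a2, Slc22a5, Slc22a6, Slc22a7, Slc22a8, Slc22a13, Slc22a19, Slc22a28 and Slc22a30, leaving out the urate transporter Slc22a12. They are 9 of the 26 Slc22 genes and of the 55450 genes in the count table. The 9 are annotated as protein-coding on GRCm38, and all 9 were among the 16592 genes with enough counts to be tested. The study made a mouse model of hyperuricemia-related chronic kidney disease and sequenced RNA of kidney tissue. All animals were young adult male wild-type C57BL/6J mice. The day 0 group (3 mice) was labelled as the control and as given 20% PEG (polyethylene glycol). The day 21 group (3 mice) had a daily gavage of adenine at 0.16 g/kg with potassium oxonate, an inhibitor of urate breakdown, at 2.4 g/kg. The day 0 mice were killed at the start of the course and the day 21 mice at its end, so the compounds, the time passed and the PEG, which is on the day 0 labels alone, cannot be told apart. Adenine is itself toxic to tubules, so the model does not separate raised urate from that injury.

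Proximal tubule cells clear drugs, toxins and waste products in a pair of steps: carriers of the basolateral membrane take them up from the blood, and carriers of the apical membrane pass them to the urine. Uptake of organic anions is paid for by dicarboxylates that leave the cell in exchange, and these are brought back by sodium-coupled carriers driven by the sodium pump. In rodents the levels of several family members in the kidney depend on sex hormones, and transcription factors of the HNF4 family are known regulators of organic anion transporter genes.

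The libraries held between 10963849 and 14333311 counts. Between day 21 and day 0, 5821 of 16592 genes passed as differentially expressed genes (DEGs), which meant an adjusted p under 0.05 and a change of more than 1.5-fold in edgeR's quasi-likelihood test. Of these, 2572 were lower at day 21 (15.5% of the genes tested) and 3249 were higher (19.6%). The labelled tissue was checked on its markers: the summed level of 10 proximal tubule markers lay between 22170 and 24770 CPM (counts scaled by library size) at day 0 and between 5854 and 7210 CPM at day 21, and all 10 were DEGs with a median log2 fold change of -1.81. All 6 injured tubule markers rose, including Havcr1, which codes for kidney injury molecule (log2 fold change 8.07), as did 5 of 5 fibroblast, 5 of 5 macrophage and 3 of 3 T cell markers. The 3 adrenal cortex markers summed to between 2.12 and 4.31 CPM over the libraries, and of these Cyp11b2 alone was at 0 in every library. In bulk kidney RNA, fewer cells of a type and less RNA per cell cannot be told apart, and this holds for every value below.

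All 9 transporters were DEGs and all 9 were lower at day 21, beside 15.5% of all genes tested. The 9 were chosen with earlier results of these data known, so this count is a description. Of the 11 other family genes tested, 8 were lower, 1 was higher and 2 were not called. Over both directions, 35.1% of genes were DEGs, and without the fold limit 45.6% passed. In each of the 9 transporters the 3 day 21 mice lay below the 3 day 0 mice, beside 26.4% of all genes tested (57.1% with groups apart in either direction). Their median log2 fold change was -2.26, where the median of all genes tested was 0.03. The falls were of unequal size. Slc22a5, Slc22a2, Slc22a6, Slc22a8 and Slc22a13 fell between 2.45-fold and 4.78-fold, while Slc22a28, Slc22a30, Slc22a19 and Slc22a7 fell between 16.3-fold and 39.9-fold. This division into 5 and 4 genes was made after the values were seen, and is a description. Ordered by fold change, Slc22a7 had the 7th lowest value of the 16592 genes tested, and Slc22a19, Slc22a30 and Slc22a28 held places 24, 28 and 29.

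**Figure D1:**
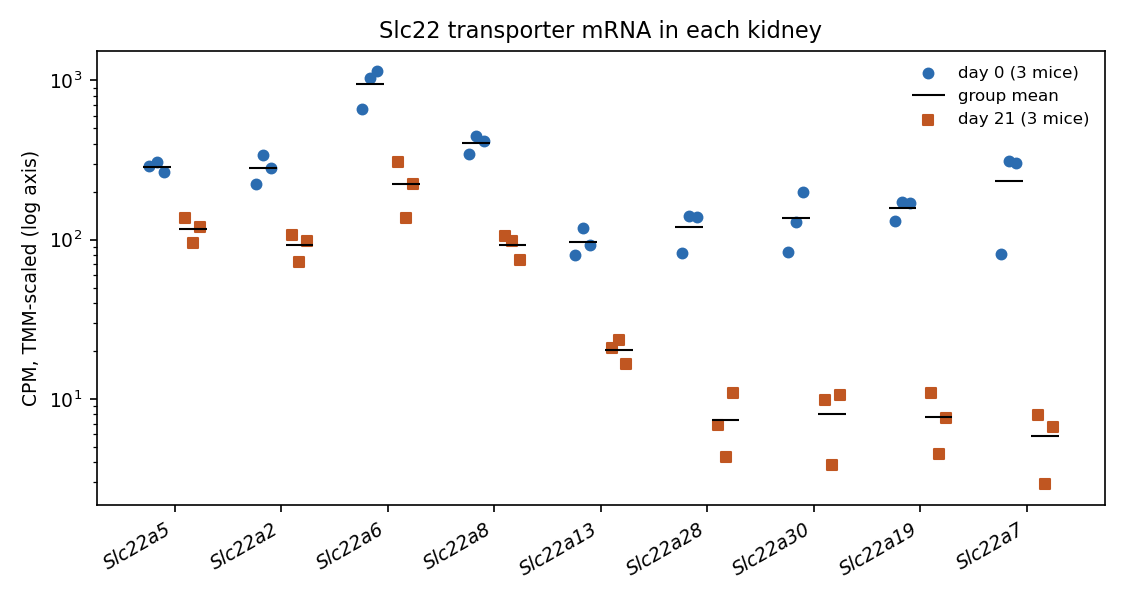
The level of each of the 9 transporters in each of the 6 kidneys, in CPM on TMM-scaled library sizes on a log axis, with black lines at the group means. The day 21 squares lie below the day 0 circles for every gene, and the distance between the group means is largest for Slc22a7.

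Levels between genes were compared in TPM, which scales counts by summed exon length as well as by depth. At day 0 the order by mean TPM was Slc22a6, Slc22a2, Slc22a7, Slc22a8, Slc22a5, Slc22a28, Slc22a13, Slc22a30 and Slc22a19, from 515.3 ± 128.8 TPM for Slc22a6 to 63.0 ± 7.42 TPM for Slc22a19 (mean ± SD, n = 3). Slc22a6 stood apart from Slc22a2 below it, and Slc22a5 from Slc22a28, while every other pair of neighbours overlapped between mice. At day 21 the order was Slc22a6, Slc22a5, Slc22a2, Slc22a8, Slc22a13, Slc22a28, Slc22a7, Slc22a30 and Slc22a19, from 174.7 ± 64.3 TPM to 4.41 ± 1.76 TPM. There Slc22a2 stood apart from Slc22a8, Slc22a8 from Slc22a13 and Slc22a13 from Slc22a28, and the other neighbours overlapped.

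The summed level of the 9 transporters was 1811 ± 380.9 TPM at day 0 and 549.2 ± 112.4 TPM at day 21, which is 30.3% of the day 0 level (n = 3 per group). The groups did not overlap (two-sided exact permutation p = 0.1, the smallest that 3 against 3 mice can give). Slc22a7 made up 13.1% of the day 0 sum and 1.59% of the day 21 sum. The shares of Slc22a28, Slc22a30 and Slc22a19 were smaller at day 21 too. Slc22a5, the carnitine carrier, went the other way, from 11.2% to 21.8%, as did Slc22a2, from 13.5% to 21.2%. Slc22a8 went from 12.3% to 13.6%, and Slc22a6 kept the largest share of the 9 in both groups with 28.5% and 31.8%. All of these genes were lower in level at day 21, so a larger share is not a rise in level.

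**Figure D2:**
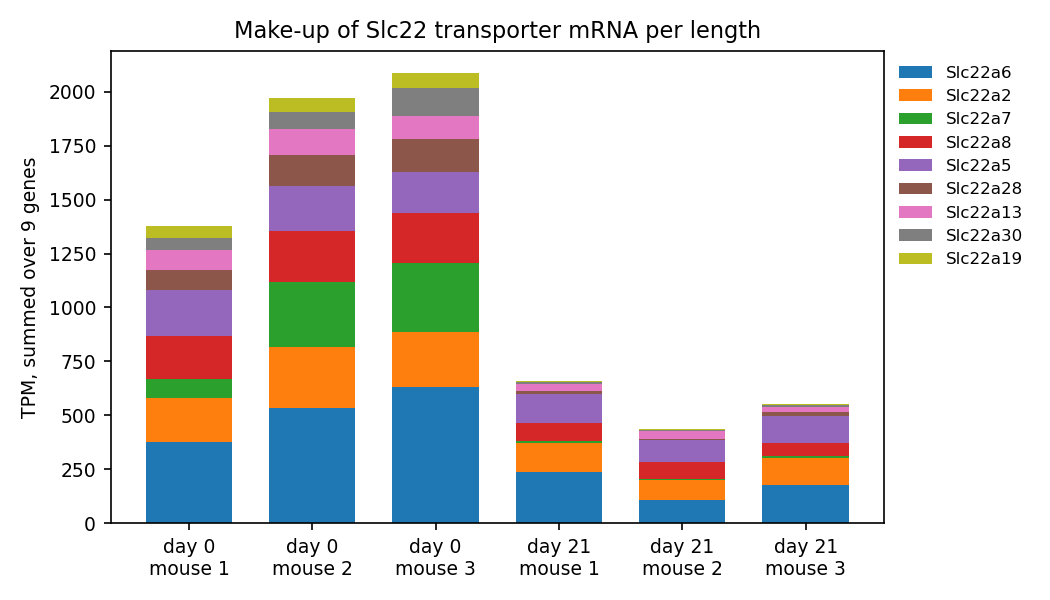
The summed TPM of the 9 transporters in each kidney, with each gene's part as a coloured segment of the bar. The sum was between 1376 and 2085 TPM at day 0 and between 434.3 and 658.8 TPM at day 21, and the Slc22a7 segment is barely visible at day 21.

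Slc22a6 codes for OAT1, which takes up p-aminohippurate and many drugs, and lies at chr19:8618039-8628299 beside Slc22a8 (chr19:8591254-8611835), which codes for OAT3. Slc22a6 measured 664.0, 1039 and 1138 CPM in the day 0 mice and 306.3, 136.2 and 224.8 CPM in the day 21 mice. Day 0 mouse 1 was the lowest control, and still lay above the highest day 21 mouse. The log2 fold change was -2.09 (SE 0.29, edgeR adjusted p = 0.000215), a 4.26-fold fall with a 95% confidence interval from 2.74 to 6.61.

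Slc22a8 measured 344.4, 450.1 and 414.7 CPM at day 0 and 105.7, 98.5 and 74.7 CPM at day 21. Its controls lay closer together than those of Slc22a6 and the groups were far apart. The fit gave a log2 fold change of -2.12 (SE 0.16, edgeR adjusted p = 5.55e-06), a 4.33-fold fall (95% interval 3.40 to 5.53). The fold change of each of these adjacent genes lay inside the interval of the other.

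Slc22a7 codes for OAT2, a carrier of organic anions and cyclic nucleotides, and lies at chr17:46432183-46438457. It measured 81.3, 310.7 and 303.4 CPM at day 0 and 7.97, 2.92 and 6.67 CPM at day 21, from raw counts of 812, 3774 and 2948 against 113, 49 and 109. The control mice were themselves uneven: day 0 mouse 1 had 3.82-fold less than mouse 2, yet lay far above the highest day 21 mouse. The log2 fold change was -5.32 (SE 0.54, edgeR adjusted p = 3.04e-05), a 39.9-fold fall whose 95% interval ran from 17.4 to 91.3. Its day 21 level was 2.51% of the day 0 level. None of the 50-base words of Slc22a7 or Slc22a6 occurred in another gene of the annotation.

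Day 0 mouse 1 was also the lowest control for Slc22a2, Slc22a6, Slc22a8, Slc22a13, Slc22a19, Slc22a28 and Slc22a30. In that kidney the 6 injured tubule markers summed to 1674 CPM against 779.0 and 537.2 CPM in the other controls and 19440 to 23480 CPM at day 21. Genes that androgen induces in the mouse kidney (7 genes) summed to 13290 CPM there against 25220 and 26340 CPM in the other controls. Their part in the levels was not tested. Without that mouse all 9 transporters were still called lower, and the log2 fold change of Slc22a7 was -5.75.

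Slc22a2 codes for OCT2, the basolateral carrier of organic cations such as creatinine and metformin, and lies at chr17:12584132-12628488. It measured 222.9, 340.4 and 281.6 CPM at day 0 and 106.6, 72.1 and 98.0 CPM at day 21. The lowest control lay well above the highest day 21 mouse, so the groups did not overlap. The fit gave a log2 fold change of -1.61 (SE 0.18, edgeR adjusted p = 6.76e-05), a 3.05-fold fall (95% interval 2.30 to 4.06). Of its 50-base words, 4.71% also occurred in another gene.

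Slc22a5 codes for OCTN2, the sodium-dependent carnitine transporter of the brush border, and lies at chr11:53864542-53891660. It measured 288.8, 307.2 and 264.3 CPM at day 0 and 135.8, 94.9 and 120.5 CPM at day 21, with the most even controls of the 9 genes. The log2 fold change was -1.29 (SE 0.14, edgeR adjusted p = 5.18e-05), the smallest fall of the 9 at 2.45-fold (95% interval 1.97 to 3.05). The related gene Slc22a21 holds 27.0% of its 50-base words, and had only 2.28 CPM at day 0 and 1.83 CPM at day 21.

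Slc22a13 codes for an apical exchanger known to carry nicotinate and urate, and lies at chr9:119192974-119209098. It measured 80.3, 118.2 and 92.8 CPM at day 0 and 20.8, 23.6 and 16.6 CPM at day 21. Every day 21 mouse was far under every control. The fit gave a log2 fold change of -2.26 (SE 0.18, edgeR adjusted p = 6.92e-06), a 4.78-fold fall (95% interval 3.65 to 6.27). Of its 50-base words, 36.0% occur in the pseudogene Slc22a13b-ps, whose mean level was 0.411 CPM at day 0 and 0.241 CPM at day 21.

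The remaining 3 genes lie in a run of related genes on chromosome 19. Slc22a19 codes for the rodent transporter Oat5, an apical exchanger of organic anions and steroid sulfates. It measured 131.1, 172.9 and 169.2 CPM at day 0 and 10.9, 4.53 and 7.58 CPM at day 21. The highest control was 1.32-fold the lowest, and the groups were far apart. The log2 fold change was -4.37 (SE 0.27, edgeR adjusted p = 2.05e-06), a 20.7-fold fall (95% interval 13.7 to 31.3).

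Slc22a28 and Slc22a30 are relatives of Slc22a19. They are nearer to Slc22a27 and Slc22a29, with 91.7% to 92.4% of aligned coding bases identical. Slc22a28 measured 81.9, 141.4 and 138.6 CPM at day 0 and 6.92, 4.35 and 10.9 CPM at day 21 (log2 fold change -4.03, SE 0.32, edgeR adjusted p = 7.36e-06). Slc22a30 measured 83.8, 128.8 and 200.0 CPM at day 0 and 9.88, 3.87 and 10.5 CPM at day 21 (log2 fold change -4.09, SE 0.39, edgeR adjusted p = 2.2e-05). In both genes every day 21 mouse was below every control, and day 21 mouse 2 was the lowest.

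Reads of this pair can be hard to assign, because their coding sequences (1656 bases each) differed at 20 positions, an identity of 98.8%. Of the 50-base words of Slc22a28, 53.3% occurred in Slc22a30, and 32.0% of those of Slc22a30 occurred in Slc22a28. Over all other genes these shares were 53.9% for Slc22a28 and 36.25% for Slc22a30. No 120-base window of the pair holds more differing bases than coding bases 610 to 729, which were chosen for that and are not typical of the whole. This stretch is shown from the GENCODE transcripts on GRCm38, with the 4 differing bases in capitals.
Slc22a28: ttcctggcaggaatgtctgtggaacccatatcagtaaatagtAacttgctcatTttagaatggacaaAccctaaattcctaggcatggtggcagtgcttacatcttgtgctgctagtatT
Slc22a30: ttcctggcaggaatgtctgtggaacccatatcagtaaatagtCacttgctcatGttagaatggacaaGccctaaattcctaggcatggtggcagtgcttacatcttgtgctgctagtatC
Their split into separate values is therefore uncertain. Summed, the pair had 165.8, 270.3 and 338.6 CPM at day 0 and 16.8, 8.22 and 21.4 CPM at day 21, with a log2 fold change of -4.06 (SE 0.35, edgeR adjusted p = 1.29e-05), so the fall did not rest on how their reads were divided. Slc22a19 shared 75.9% of aligned coding bases with each of them.

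Between the near end of Slc22a19 and the far end of Slc22a6 (chr19:7673061-8628299, GRCm38) the annotation placed 8 Slc22 genes in 955.2 kb, among them Slc22a19, Slc22a28, Slc22a30, Slc22a8 and Slc22a6. The other 3 were Slc22a26, Slc22a27 and Slc22a29. Of these 8 genes, 7 were tested and all 7 were lower, beside 15.5% of all genes tested. The members among them were already counted above, so this count is a description and no separate result. The 12 other annotated genes of the stretch, mostly pseudogenes, were too low to test. The sizes of the falls differed along the stretch: Slc22a8 and Slc22a6 at its end had log2 fold changes of -2.12 and -2.09, while Slc22a19, Slc22a26, Slc22a28 and Slc22a30 had values between -4.37 and -3.64. Slc22a29 lay between them at -2.54, from only 5.80 CPM at day 0.

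The likeness of Slc22a28 and Slc22a30 extended to the sequence before their RefSeq start sites (GRCm38.p6), with 250 bases for Slc22a28 and 244 for Slc22a30, which are shown because the pair also fell together. Slc22a28 is at chr19:8131983-8132232 and Slc22a30 at chr19:8405112-8405355, both on the minus strand, and each sequence runs 5′ to 3′ on the strand of its gene with the 6 bases that differ in capitals.
Slc22a28: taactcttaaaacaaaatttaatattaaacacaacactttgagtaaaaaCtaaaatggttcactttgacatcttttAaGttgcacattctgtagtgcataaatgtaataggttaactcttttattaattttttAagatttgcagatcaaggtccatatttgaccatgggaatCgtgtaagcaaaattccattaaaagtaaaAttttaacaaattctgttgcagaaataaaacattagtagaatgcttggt
Slc22a30: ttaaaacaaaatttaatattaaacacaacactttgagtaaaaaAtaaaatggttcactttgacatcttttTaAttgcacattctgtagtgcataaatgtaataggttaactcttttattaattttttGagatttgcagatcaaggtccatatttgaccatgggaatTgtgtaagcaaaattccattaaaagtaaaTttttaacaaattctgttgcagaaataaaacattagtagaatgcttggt
These windows were 97.5% identical over 244 aligned bases, so they count as nearly the same sequence. The Slc22a19 window shared 63.9% of 194 aligned bases with that of Slc22a28. The 250 bases before the start site were also searched on both strands in 8 of the 9 members, all but Slc22a7. The Slc22a8 window overlaps an annotated exon, and the Slc22a2 window (chr17:12583939-12584188) runs past the annotated start of its gene at 12584132. Windows on chromosomes other than chr19 were not compared with exons. The HNF4 letters CAAAGTCCA were in 0 of 8 member windows and in 0.384% of all 32851, and TATAAA was in 0 of 8 and in 12.4% of all, which says only that these letters are not in these windows.

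The proximal tubule markers fell too, so each transporter was set against them within each library, as the log2 ratio of its CPM to the geometric mean of the 10 markers. That reference itself changed by -1.90 (log2) from day 0 to day 21. Relative to it, Slc22a7 differed by -3.17 (log2), with ratios of -4.16, -2.38 and -2.25 at day 0 and -5.72, -6.69 and -5.89 at day 21. Slc22a19 differed by -2.45, Slc22a30 by -2.14 and Slc22a28 by -2.09, and for these 4 genes the groups did not overlap (two-sided exact permutation p = 0.1 each).

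For the other genes the ratio differed by less. Slc22a6 differed by -0.23, Slc22a8 by -0.22 and Slc22a13 by -0.33, with overlapping groups (exact permutation p of 0.6, 0.5 and 0.3), and with Lrp2 (megalin) alone as the reference these 3 differences turned positive, at 0.25, 0.26 and 0.15. Slc22a2 differed by 0.29, again with overlap (exact permutation p = 0.2), but its groups did not overlap with Lrp2 alone as the reference (0.77) or without day 0 mouse 2 (0.39), with an exact permutation p of 0.1 in both. Slc22a5 was higher relative to the markers by 0.59, from ratios between -2.45 and -2.34 at day 0 to ratios between -1.89 and -1.71 at day 21, and its groups did not overlap (exact permutation p = 0.1). With Lrp2 alone that difference was 1.08. With 3 mice against 3, none of these p-values could go below 0.1.

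**Figure D3:**
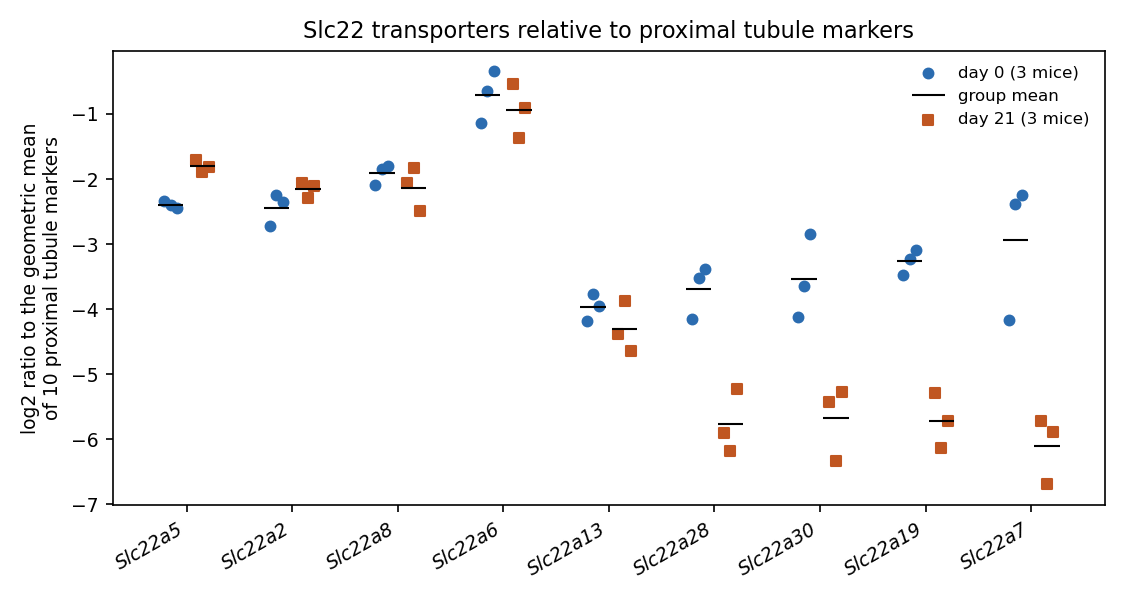
The log2 ratio of each transporter to the geometric mean of 10 proximal tubule markers in each kidney, with black lines at the group means. Slc22a5 lies higher at day 21, the next 4 genes overlap between the groups, and Slc22a28, Slc22a30, Slc22a19 and Slc22a7 lie lower with a gap.

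Markers of the tubule segments fell by unequal amounts as well. The 4 markers of the early S1 segment had a median log2 fold change of -2.02 and the 3 of the late S3 segment -3.27, and all 7 were called lower. The ranges overlapped, from -2.64 (Gatm) to -1.42 (Slc5a12) for S1 and from -3.79 (Slc7a13) to -1.59 (Atp11a) for S3. Slc7a13 had 922.6 ± 114.6 CPM at day 0 and 66.6 ± 13.2 CPM at day 21. Of the 7 androgen-induced genes, 6 were lower, with a median over all 7 of -2.86, and Gusb alone was higher (0.68). Whether segment or hormone bears on the 4 transporters with large falls was not tested.

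Outside the 9 genes the family held 17 more, of which 11 were tested, 8 were lower, 1 was higher and 2 were not called. Slc22a12, which codes for the urate reabsorption carrier URAT1, had the highest length-corrected level of all 26 genes, with 1998 ± 245.5 TPM at day 0 and 493.7 ± 157.5 TPM at day 21 (n = 3, log2 fold change -2.55, edgeR adjusted p = 2.07e-05). Of its exon bases, 30.1% overlap those of Nrxn2 on the opposite strand, and the strand setting of the counting is not given in the sources used here.

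Of the other family genes, Slc22a22 and Slc22a26 had log2 fold changes of -3.74 and -3.64, nearest to those of Slc22a28 and Slc22a30. Slc22a29, Slc22a18, Slc22a4 and Slc22a17 were also called lower, with values between -2.54 and -1.10. Slc22a15 was the exception: it rose from 3.11, 2.39 and 5.46 CPM to 8.96, 10.4 and 7.46 CPM (log2 fold change 1.30, edgeR adjusted p = 0.00574). Slc22a23 at -0.51 and Slc22a21 at -0.33 were not called, although Slc22a23 was called lower without day 21 mouse 1 (-0.59). Slc22a3, Slc22a13b-ps, Slc22a14, Slc22a16, Slc22a20 and Slc22a27 were too low to test.

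**Figure D4:**
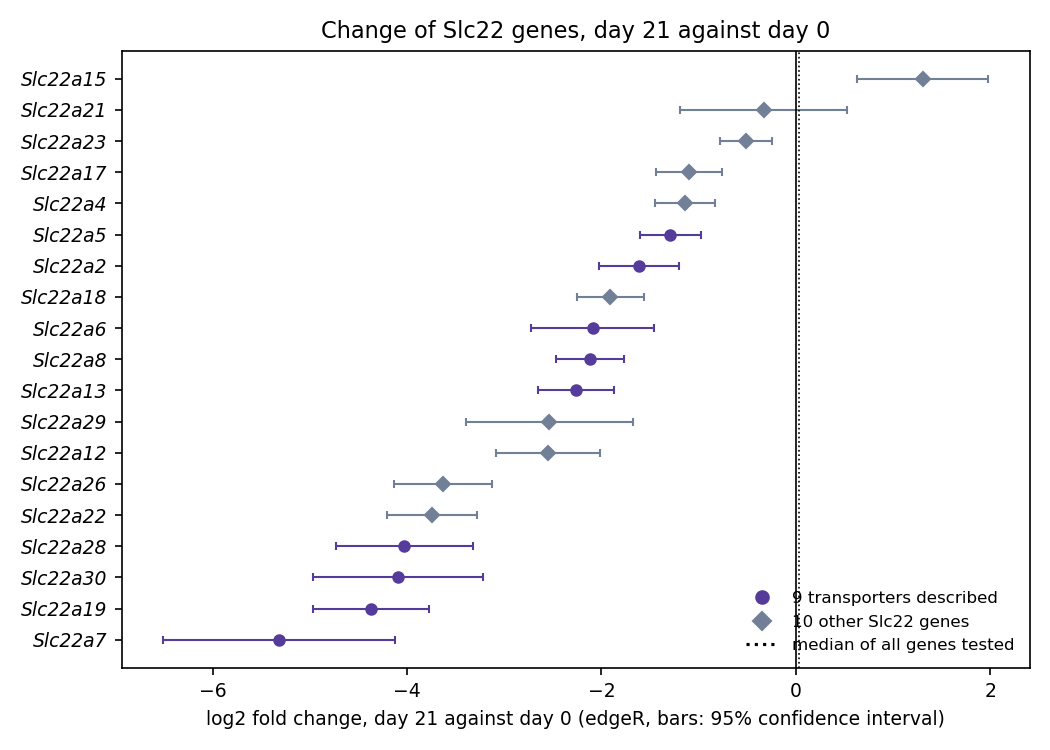
The log2 fold change (day 21 against day 0) of the 9 transporters and 10 other Slc22 genes that passed the count filter, with 95% confidence intervals from edgeR. Circles mark the 9 transporters described and diamonds the 10 other family genes, and Slc22a15 alone lies to the right of 0 with its whole interval.

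The genes that work with these carriers were counted from lists, and all of the list counts below are to be read beside 15.5% of genes called lower and 19.6% called higher. When libraries were scaled by size alone, the all-gene median shifted to 0.42 (log2) and the members' median to -1.86, with all 9 still called lower. On the apical exit side, 5 of 8 tested transporters were lower and 1 was higher (median log2 fold change -0.98). Slc47a1, the cation and proton exchanger MATE that passes on what OCT2 takes up, went from 670.4 ± 19.7 CPM to 278.4 ± 28.6 CPM (log2 fold change -1.27), and Slc17a3, a urate and anion exit carrier, had a log2 fold change of -2.20. Abcc4, the efflux pump MRP4, rose from 53.1 ± 10.9 CPM to 87.2 ± 8.09 CPM (log2 fold change 0.72, edgeR adjusted p = 0.00371), against the direction of the basolateral uptake genes Slc22a6 and Slc22a8. The urate and drug pump Abcg2 was lower (-0.85), and was not called when libraries were scaled by size alone, where 4 genes of this list were lower and 2 higher.

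The dicarboxylate cycle that drives Slc22a6, Slc22a8 and Slc22a19 was measured through its carriers, which were lower. The sodium-dicarboxylate carriers Slc13a3 (basolateral) and Slc13a2 (apical) had log2 fold changes of -1.66 and -1.17, and the sodium-proton exchanger Slc9a3 had -1.07. The sodium pump subunit Atp1b1 had a value of -0.53 and did not reach the 1.5-fold limit. Of 3 brush border scaffold genes, 2 were lower, among them Pdzk1 (-1.38), whose product holds apical carriers in place, while 1 was lower with library size alone.

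Of 8 organic anion transporting polypeptide genes, 5 were lower and 0 higher. Slco1a1 had the largest fall among them (log2 fold change -3.33, SE 0.56), with uneven controls of 76.5, 122.2 and 381.9 CPM. With library size alone 3 were lower, and both with it and with upper quartile scaling 2 were called higher (Slco2a1 and Slco2b1), so the calls of the latter pair depend on scaling.

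Of the transcription factors listed, Hnf4a had a log2 fold change of -1.28, Ppara, a regulator of fatty acid oxidation, had -1.97 and Bcl6 had -1.07, and all of these were called lower. Hnf4g had -0.68 and was also called lower, though not with upper quartile scaling or library size alone. Hnf4a was 1230 ± 129.6 CPM at day 0 and 504.9 ± 73.6 CPM at day 21 (n = 3).

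Carnitine handling around Slc22a5 was covered by 5 tested genes, and all 5 were lower, or 3 with library size alone. Aldh9a1, of carnitine synthesis, had a log2 fold change of -1.94, and Cpt2 and Crat, which move acyl groups on and off carnitine, had -1.48 and -1.19. Crat, Cpt1a (-0.76) and the mitochondrial carrier Slc25a20 (-0.75) had smaller falls than the -1.29 of Slc22a5.

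The gene outside the family with the most similar pattern over the 6 mice was found for each member by the Euclidean distance between mean-centred log2 CPM values, among 13124 genes. For Slc22a2 it was Slc16a9 (distance 0.17), for Slc22a5 it was Hus1 (0.12) and for Slc22a6 it was Bhmt2 (0.28). Vwce was nearest to both Slc22a8 (0.18) and Slc22a13 (0.26), which were also the closest of all pairs of members (0.30). For the genes with the larger falls the nearest gene lay farther off: Akr1c14 for Slc22a30 (0.44), Sec14l3 for Slc22a19 (0.53), the S3 marker Slc7a13 for Slc22a28 (0.71) and Gm15879 for Slc22a7 (1.06). These distances follow both the group difference and the spread between mice, and carry no test.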

How the data were processed

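Kidney RNA of 6 mice was analysed from the table of raw read counts per gene that the authors deposited. The submitters' processing notes name TopHat and the build mm10 without roles, and the counter and its strand setting are not given in the sources used here. Genes were named from GENCODE M21 identifiers, all 55450 of which matched. Counts were fitted with edgeR 4.0.16 in R 4.3.3 (TMM scaling, filterByExpr with a minimum count of 10, quasi-likelihood test, no block), with p adjusted by Benjamini-Hochberg over 16592 genes; a DEG needed adjusted p under 0.05 and fold over 1.5. CPM used TMM-scaled library sizes, and TPM the summed exon length. Ratios to proximal markers used a pseudocount of 0.5 CPM and a two-sided exact permutation test. The fit was tested on simulated counts. DESeq2 1.42.0, limma 3.58.1, other scalings and filters and leaving out each mouse were the alternatives. The named genes are all 9 members, the other Slc22 genes, the genes of the marker and pathway lists, and the nearest gene of each member with a mean of at least 50 counts. Members and lists were chosen with earlier results of these data known. The paper states that mice were put into groups at random, and nothing else says how samples of 1 group relate beyond separate mice. The p-values weigh the difference between the groups against the spread of these 6 kidneys within groups. No 2 libraries of a group were duplicates of each other. Promoters came from a RefSeq table. Some genes of the lists are not reported here, though counts over the family include them.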

Additional observations from a re-analysis of the deposited data

How the results depend on the processing

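All 9 transporters were called lower under each of the 17 alternatives, among them DESeq2, limma-voom, other scalings and filters, and leaving out each mouse. The count of DEGs over all genes lay between 5128 and 5920 without a mouse and fell to 3172 at adjusted p under 0.01 with fold over 2, a stricter rule by construction; with library size alone 81.7% of DEGs were higher against 55.8%. Relative to Lrp2 alone, the differences of Slc22a6, Slc22a8 and Slc22a13 turned to 0.25, 0.26 and 0.15 (exact permutation p of 0.5, 0.5 and 0.7), and the cause was not tested. The count of transporters lower against the markers without overlap was 4, and ranged from 4 to 5 without a mouse (Slc22a13 joined without day 21 mouse 2). Replicate numbers are not said to link mice: same-numbered mice had correlations of deviations of -0.03, 0.18 and 0.11, and not every mouse correlated best with its own number. With the replicate block there were 5758 DEGs and 9 transporters called lower. With 3 mice a group, small differences between members cannot be resolved.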

Other observations

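Other parts of the nephron were measured as a setting for the transporters, with the calls of the same edgeR fit. In the thick ascending limb 2 of 3 markers were lower, in the distal convoluted tubule 2 of 3, in the collecting duct 2 of 3 and among intercalated cell markers 2 of 4. Slc12a1, the target of loop diuretics, had a log2 fold change of -1.65, close to that of Slc22a2, while Umod was at -0.45 and was not called. Pvalb, a marker of the early distal convoluted tubule, had 20.0 ± 6.88 CPM at day 0 and 0.0204 ± 0.0353 CPM at day 21 (n = 3). Of 4 podocyte markers 3 were lower, and of 4 endothelial markers 1 was lower (Kdr, -1.33). With library size alone 1 of 3 thick ascending limb, 1 of 4 intercalated cell and 1 of 4 podocyte markers were lower. None of the 3 B cell markers had enough counts to be tested, and the 2 tested neutrophil markers, S100a8 and S100a9, were lower (-1.97 and -1.99). The adrenal marker Star was at -0.33 and not called.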
